A study of Mus musculus with 39 samples.

Results

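The cornified envelope genes are described here across hind paw skin and dorsal root ganglia (DRG, clusters of sensory neurons beside the spinal cord) of mice given paclitaxel. The group was set by name: every symbol that starts with Sprr (Sprr1a left out) or Lce, with Lor, Flg2, Ivl, Rptn, Hrnr, Crct1, Crnn, Tchh and Tchhl1. That gave 40 of the 22609 genes counted, and Flg is not analysed here. WT C57 mice aged 8 to 12 weeks had received paclitaxel, a microtubule-binding cancer drug, as 2 intraperitoneal injections of 3 mg/kg. Day numbers start from the last injection. Paw was taken from paclitaxel females on days 2, 6, 16 and 26, from paclitaxel males on days 2, 6 and 15, and from vehicle females 1 day after their injections. Every title of a male sample, and none of a female one, carries the letters LC, whose meaning the labels do not give, so this tag and sex cannot be told apart. DRG of levels L3 to L5 were taken from paclitaxel females and males on days 2 and 6 and from vehicle females. Each of the 13 groups had 3 libraries, and vehicle males are not analysed here. Whether the 3 libraries of a group are 3 different animals is not stated in the labels, and p-values therefore speak of the spread among libraries, part or all of which may be technical.

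The cornified envelope is the tough protein shell that replaces the cell membrane as a keratinocyte of the upper epidermis dies and becomes part of the skin surface. Transglutaminases tie involucrin, loricrin, the small proline-rich (SPRR) proteins and the late cornified envelope (LCE) proteins together, while proteins of the filaggrin type bundle keratin and bind the shell to the cell's interior. Most of their genes stand side by side in a cluster called the epidermal differentiation complex, and hairless paw skin, with its thick surface layer, makes much of them.

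The RefSeq promoter table (build GRCm38.p6) held 36 of the 40 members, all on chromosome 3 between bases 92083093 and 93468803, and it did not list Crct1, Lce1f, Sprr2g and Sprr2j-ps. Each entry covers 250 bases before the start of the gene and 50 after it. The 6 promoters below belong to the genes on which the results turn. Lor was higher in paclitaxel females, Sprr1b and Lce1b were lower, and Lce1h did not pass the test. Rptn and Crnn lay higher in every paclitaxel male paw library than in any female one. These 6 promoters were picked after those results were known. Capitals mark the letters TGANTCA, the core of an AP-1 site with its middle base left open (N), and TATAAA, the letters of a TATA box. This is a looser pattern than the AP-1 core itself, and the match reads TGAGTCA in Lor, TGAATCA in Sprr1b and Crnn and TGATTCA in Rptn. GGGTGG, searched as well, is left in lower case.
Lor, chr3:92083093-92083392, minus strand: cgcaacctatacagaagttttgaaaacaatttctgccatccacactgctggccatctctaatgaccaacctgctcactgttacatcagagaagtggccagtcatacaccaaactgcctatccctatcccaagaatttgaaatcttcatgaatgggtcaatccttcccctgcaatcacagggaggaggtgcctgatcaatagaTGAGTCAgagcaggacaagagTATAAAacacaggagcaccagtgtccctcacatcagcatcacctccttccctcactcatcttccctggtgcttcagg
Sprr1b, chr3:92438730-92439029, minus strand: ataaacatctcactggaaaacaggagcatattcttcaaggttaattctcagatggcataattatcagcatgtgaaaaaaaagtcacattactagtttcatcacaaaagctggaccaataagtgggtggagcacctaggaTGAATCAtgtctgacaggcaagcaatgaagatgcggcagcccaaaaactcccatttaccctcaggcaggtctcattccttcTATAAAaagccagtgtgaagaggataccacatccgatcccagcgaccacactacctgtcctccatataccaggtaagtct
Lce1b, chr3:92656877-92657176, minus strand: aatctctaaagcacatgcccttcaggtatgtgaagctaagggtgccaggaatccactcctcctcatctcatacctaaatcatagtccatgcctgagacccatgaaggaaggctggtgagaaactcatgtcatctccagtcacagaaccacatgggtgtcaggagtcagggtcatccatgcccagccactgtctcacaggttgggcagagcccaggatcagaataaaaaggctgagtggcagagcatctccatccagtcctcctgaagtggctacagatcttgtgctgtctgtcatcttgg
Lce1h, chr3:92765016-92765315, minus strand: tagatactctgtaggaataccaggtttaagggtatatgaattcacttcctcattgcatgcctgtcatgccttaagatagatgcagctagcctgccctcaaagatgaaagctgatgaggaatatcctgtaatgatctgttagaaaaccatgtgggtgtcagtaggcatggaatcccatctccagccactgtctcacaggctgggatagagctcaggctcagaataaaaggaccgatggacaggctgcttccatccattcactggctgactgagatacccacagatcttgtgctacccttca
Rptn, chr3:93393449-93393748, plus strand: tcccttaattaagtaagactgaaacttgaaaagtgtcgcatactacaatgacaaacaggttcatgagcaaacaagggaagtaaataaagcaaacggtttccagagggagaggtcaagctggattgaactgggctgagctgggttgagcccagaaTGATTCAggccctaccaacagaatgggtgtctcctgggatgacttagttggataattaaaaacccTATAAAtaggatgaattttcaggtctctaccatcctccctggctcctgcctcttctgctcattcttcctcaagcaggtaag
Crnn, chr3:93144539-93144838, plus strand: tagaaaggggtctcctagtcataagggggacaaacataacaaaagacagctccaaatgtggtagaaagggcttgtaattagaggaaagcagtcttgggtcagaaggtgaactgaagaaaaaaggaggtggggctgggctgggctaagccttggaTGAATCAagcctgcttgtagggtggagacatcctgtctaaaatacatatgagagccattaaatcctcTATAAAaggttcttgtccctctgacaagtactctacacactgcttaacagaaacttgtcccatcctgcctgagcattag
The letters TGANTCA stood, on either strand, in 14 of the 36 promoters (38.9%), against 7.81% of the 32851 promoters in the table. Of the 12 Sprr promoters 8 held them (66.7%), and of the 11 Lce1 promoters 0 did. They began 48 bases before the start in Lor, 111 bases before it in Sprr1b and 96 bases before it in both Rptn and Crnn. In each Sprr2 promoter that held them, a match began 193 to 198 bases before the start. TATAAA stood in 17 of the 36 promoters (47.2%), against 13.6% of all promoters. The last motif searched, GGGTGG, stood in 7 of the 36 (19.4%), against 31.5% of all promoters. Matches of different motifs cannot overlap, and a match is a description of the letters in the window. The 11 Lce1 promoters resembled each other, with 44.3% to 86.3% identical bases over the 55 pairs (median 70.0%), and Lce1b and Lce1h shared 70.7%.

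Levels are given as CPM, a gene's count divided by all gene reads of its library and set to the usual common total, and counts were tested with edgeR's quasi-likelihood F test, fitted over all genes of a tissue and called at a Benjamini-Hochberg adjusted p under 0.05. The 24 paw libraries held 16781618 to 24598926 gene reads, and 36 of the 40 members were tested there. Sprr2f and Sprr3 were too low, and Sprr2a1 and Sprr2a2 had 0 reads in every library. Of the 50-base stretches of Sprr2a1 and Sprr2a2, 96.3% and 96.5% also occur in other genes, so reads of 50 bases can seldom be assigned to either. The libraries fall into 2 sets by the share of reads that touched more than 1 gene, which was 0.21% to 0.30% for the 18 paclitaxel female libraries, against 0.54% to 0.75% for the 21 others (paclitaxel males and vehicle females). In both tissues, paclitaxel and library set cannot be told apart in females, and nor can sex and library set among paclitaxel mice. Days within paclitaxel females, days within paclitaxel males, and paclitaxel males against vehicle females each stay inside 1 set.

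Levels per kilobase of exon (all annotated exons of a gene joined) ranked the members in vehicle paw. Lor, the most abundant envelope protein of the epidermis, led with 2530 ± 656 CPM per kb (SD, n = 3), followed by Lce1b with 1830 ± 327, Lce1d with 1630 ± 315 and Lce1a1 with 1490 ± 281. Each of these differed from its neighbour in the order by less than the sum of the 2 SDs. Sprr1b stood at 1000 ± 103 CPM per kb, Crct1 at 775 ± 146 and Hrnr at 402 ± 26.7. Ivl reached 73.0 ± 6.89 CPM per kb, Rptn 32.2 ± 6.04, Crnn 19.3 ± 5.29 and Flg2 9.84 ± 0.549. Flg2 and Hrnr are built from repeats, and 65.3% and 69.1% of their 50-base stretches recur within the same gene, so their levels are uncertain. Sprr3, a gene of wet epithelia such as the oesophagus, was close to 0 in vehicle paw with 0.145 ± 0.0585 CPM per kb.

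Paclitaxel females were compared with vehicle females on each day to ask how the drug group differs in paw skin over time. On day 2 the members lay low: 20 of the 36 tested fell and 0 rose by edgeR, where 14.9% of all 15346 genes tested fell and 14.1% rose. At an unadjusted p under 0.05 there were 26 members, and DESeq2 called 24, all lower. The median change over the members was -1.0 on the log2 scale, against 0.04 over all genes. In these bulk samples, fewer cells of a type and less RNA per cell cannot be told apart. On day 6, 7 members fell and 2 rose (13.5% and 16% of all genes). There 18 fell and 3 rose with muscle level as a covariate, and 13 fell and 3 rose with suprabasal keratin level. On day 16, 9 fell and 4 rose (10.3% and 11.4%), and on day 26, 13 fell and 2 rose (9.41% and 11%). With the compared groups alone, 10 fell and 1 rose on day 16, where 2372 of all genes were called, 1044 of them higher. Tchh, Tchhl1 and Crct1 lost their day 16 calls in that fit. Counted by libraries that did not overlap with vehicle, 0 members lay higher and 25 lower on day 2, where 13.8% of all genes lay higher and 25.8% lower. The same counts were 4 and 13 on day 6 (15.5% and 29.8%), 4 and 15 on day 16 (13.2% and 26.4%), and 3 and 26 on day 26 (14.7% and 26.4%). These 4 comparisons share the same 3 vehicle libraries.

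**Figure D1:**
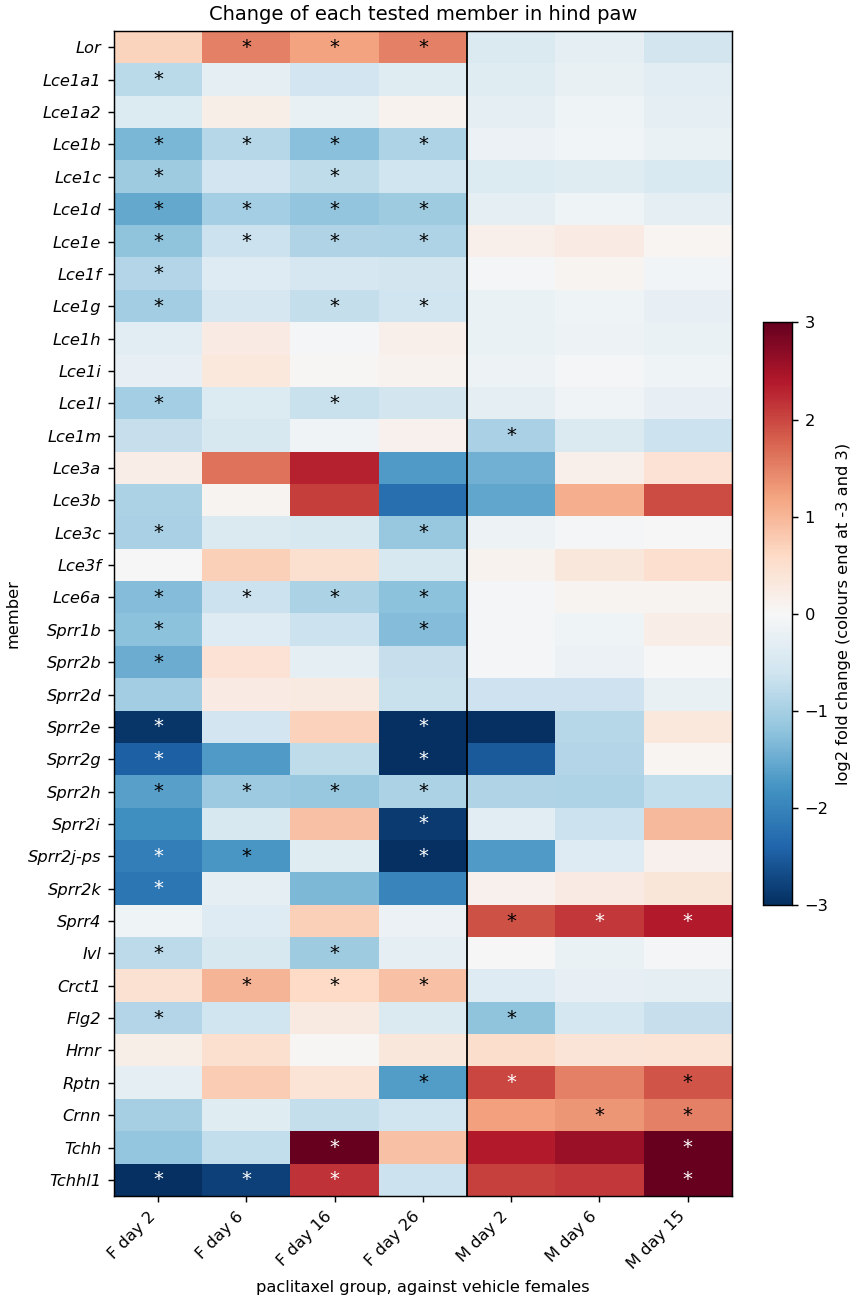
Log2 fold change of the 36 tested members (rows) in each paclitaxel group against vehicle females (columns), red for higher and blue for lower, with colours ending at -3 and 3. An asterisk marks a call at an adjusted p under 0.05 by edgeR's quasi-likelihood test. Lor and Crct1 are red with a call on female days 6, 16 and 26, while Lce1b, Lce1d, Lce1e, Lce6a and Sprr2h are blue with a call on all 4 female days.

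Lor, which encodes loricrin, rose on 3 of the 4 days. Its libraries held 3890, 5840 and 3760 CPM in vehicle females, 3850, 10100 and 6260 CPM on day 2, 10900, 9550 and 14700 CPM on day 6, 9000, 8870 and 11100 CPM on day 16, and 11900, 13500 and 10500 CPM on day 26. Every library of days 6, 16 and 26 lay above every vehicle library, while day 2 overlapped with them. The log2 fold change was 1.52 ± 0.31 on day 6 (SE, adjusted p = 0.00119), 1.2 ± 0.31 on day 16 (adjusted p = 0.00928) and then 1.5 ± 0.31 on day 26 (adjusted p = 0.00192). On day 2 it was 0.67 ± 0.31 (adjusted p = 0.109). The day 16 call was lost without vehicle replicate 3 (adjusted p = 0.0524).

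Crct1, a small gene of the same cluster, was higher on the same 3 days. Its libraries held 532, 747 and 563 CPM in vehicle females, 730, 953 and 684 CPM on day 2, 1130, 927 and 1330 CPM on day 6, 832, 782 and 992 CPM on day 16, and 996, 1210 and 992 CPM on day 26. The groups of days 6, 16 and 26 did not overlap with vehicle. Its log2 fold change was 1.02 ± 0.21 on day 6 (adjusted p = 0.00113), 0.60 ± 0.21 on day 16 (adjusted p = 0.0446) and then 0.89 ± 0.21 on day 26 (adjusted p = 0.00463). The day 16 call was lost without vehicle replicate 1 or 3 or day 16 replicate 1 or 3, with an adjusted p of up to 0.175. It was also lost with the compared groups alone and with all genes kept whatever their counts.

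**Figure D2:**
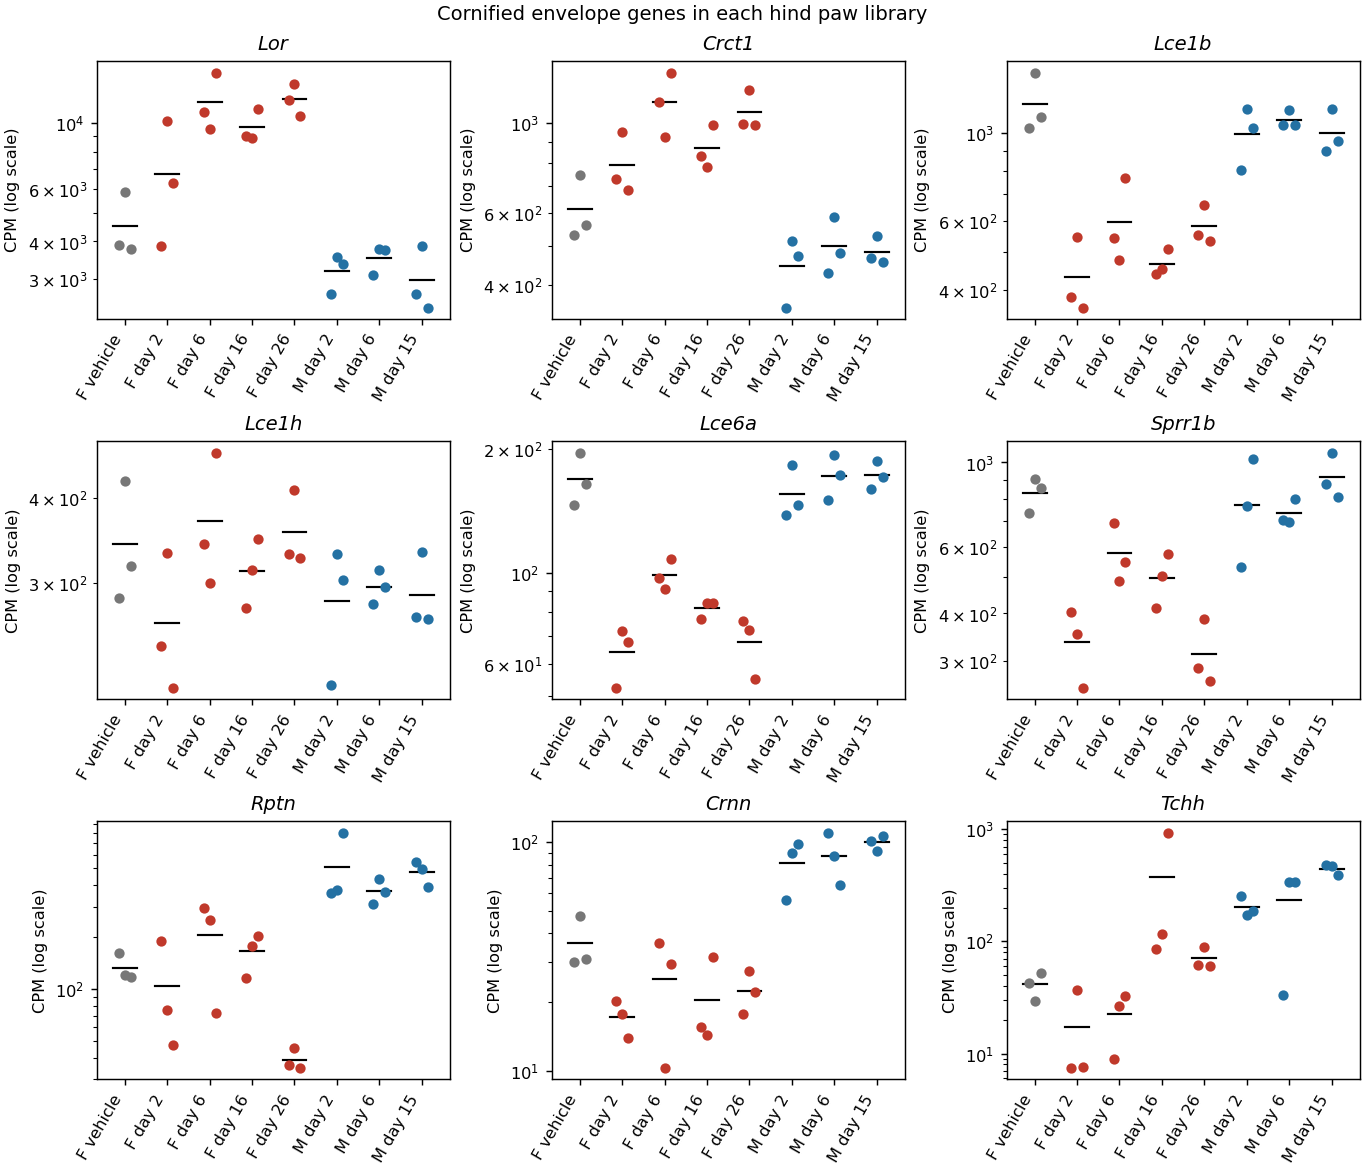
CPM on a log scale in each paw library for 9 members, with paclitaxel females in red, paclitaxel males in blue and vehicle females in grey; bars are group means of 3 libraries. The red points of Lce6a and Lce1b lie below all grey and blue points, and the blue points of Rptn and Crnn lie above all grey and red points.

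The Lce1 genes encode late cornified envelope proteins, which are added to the shell in its last phase. Their summed level was 4390 ± 878 CPM on day 2, against 8900 ± 1670 CPM in vehicle females (SD, n = 3 each). The members did not move alike. Of the 12 Lce1 genes, 8 fell on day 2 (14.9% of all genes) and 3 on day 6 (13.5%). On day 16, 6 fell (10.3%), on day 26, 4 fell (9.41%), and none rose on any of these days (11% to 16%).

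Lce1b held 1030, 1420 and 1100 CPM in vehicle females, 385, 546 and 361 CPM on day 2, 543, 476 and 768 CPM on day 6, 439, 451 and 507 CPM on day 16, and 552, 657 and 534 CPM on day 26. No library of paclitaxel females reached the vehicle range. The log2 fold change was -1.37 ± 0.22 on day 2 (adjusted p = 0.000126), -0.85 ± 0.22 on day 6 (adjusted p = 0.00555), -1.25 ± 0.22 on day 16 (adjusted p = 0.000398) and then -0.93 ± 0.22 on day 26 (adjusted p = 0.00429). On day 2 the change was -1.54 ± 0.23 for Lce1d (adjusted p = 6.59e-05) and -1.21 ± 0.19 for Lce1e (adjusted p = 0.000136), and both stayed called on the 3 later days. The day 6 call of Lce1e (-0.64 ± 0.19) was lost without vehicle replicate 2 or day 6 replicate 2, with an adjusted p of up to 0.124.

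The other Lce1 genes gave smaller changes on day 2. Lce1g held 319, 454 and 310 CPM on day 2, against 691, 933 and 752 CPM in vehicle females, and passed on days 2 (-1.05 ± 0.20), 16 (-0.72 ± 0.20) and 26 (-0.60 ± 0.20). Lce1c held 395, 563 and 377 CPM on day 2, against 843, 1190 and 936 CPM in vehicle females, and passed on days 2 (-1.07 ± 0.23) and 16 (-0.76 ± 0.23), as did Lce1l (-1.01 ± 0.22 and -0.67 ± 0.22). These day 16 calls were lost without vehicle replicate 2 or day 16 replicate 1 or 2, with adjusted p of up to 0.186, and that of Lce1g on day 26 without vehicle replicate 2 or 3 or day 26 replicate 1 or 3 (up to 0.191). Lce1f (-0.88 ± 0.22) and Lce1a1 (-0.80 ± 0.22) passed on day 2 alone, Lce1a1 not without vehicle replicate 2 or day 2 replicate 3 (adjusted p up to 0.0663). Lce1a2 and Lce1m passed on no day, with -0.42 ± 0.21 (adjusted p = 0.139) and -0.69 ± 0.28 (adjusted p = 0.0717) on day 2. Lce1m is the Lce1 gene that shares no 50-base stretch with another gene.

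Lce1h held 285, 424 and 318 CPM in vehicle females, 242, 332 and 210 CPM on day 2, 343, 300 and 467 CPM on day 6, 275, 314 and 348 CPM on day 16, and 331, 412 and 327 CPM on day 26. These groups overlapped with vehicle on every day. The 95% interval of its log2 change ran from -0.75 to 0.14 on day 2 and from -0.48 to 0.41 on day 16. Lce1i gave similar values, with -0.25 ± 0.22 on day 2 and 0.04 ± 0.22 on day 16. Reads of the Lce1 genes are partly interchangeable, since 24.4% of the 50-base stretches of Lce1b, 25.4% of Lce1d, 19.9% of Lce1h and 27.1% of Lce1i occur in other genes.

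The unequal change showed as a ratio within each library. Lce1b gave 1.44 to 1.72 reads per Lce1h read in the 12 paw libraries of paclitaxel females. It gave 3.38 to 3.80 in the 9 of paclitaxel males, against 3.36 to 3.60 in the 3 of vehicle females. Lor gave 9.99 to 21.9 reads per Lce1b read in paclitaxel females and 2.52 to 3.57 in paclitaxel males, against 3.41 to 4.10 in vehicle females. The ratios were chosen after the unequal changes had been seen. They split the libraries exactly as the library sets do, and the part of the library set in them was not tested.

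**Figure D3:**
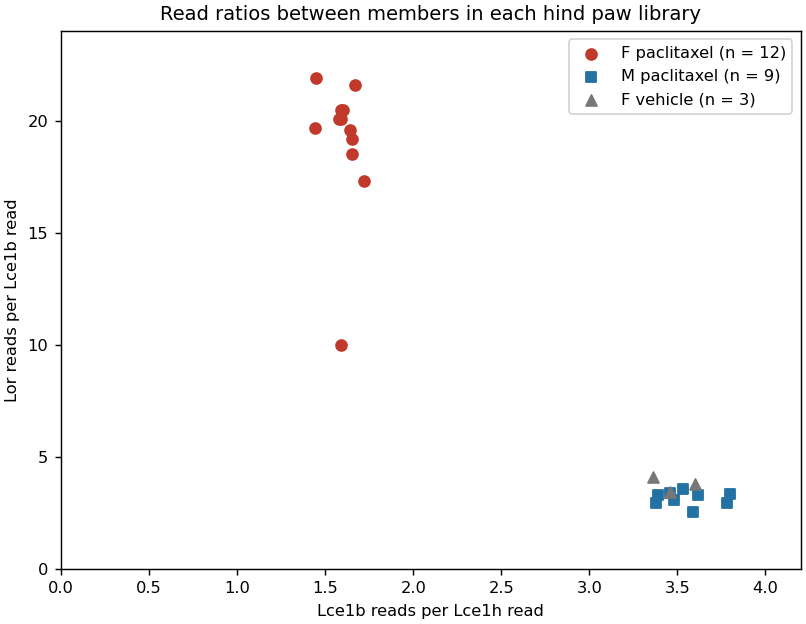
Reads of Lor per Lce1b read against reads of Lce1b per Lce1h read, 1 point for each of the 24 paw libraries, on linear axes. Paclitaxel females (circles) lie at 1.44 to 1.72 on the horizontal axis, and paclitaxel males (squares) and vehicle females (triangles) lie together at 3.36 to 3.80.

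Lce6a, a late envelope gene apart from the Lce1 and Lce3 blocks, has no 50-base stretch in common with another gene. It held 146, 196 and 165 CPM in vehicle females, 52.4, 72.2 and 67.9 CPM on day 2, 97.0, 91.1 and 108 CPM on day 6, 77.2, 84.3 and 84.3 CPM on day 16, and 76.1, 72.3 and 55.1 CPM on day 26. All 12 libraries of paclitaxel females lay below all 3 vehicle libraries, and below all 9 libraries of paclitaxel males, which held 138 to 194 CPM. Its log2 fold change was -1.31 ± 0.17 on day 2 (adjusted p = 2.07e-05), -0.64 ± 0.17 on day 6 (adjusted p = 0.00847), -0.95 ± 0.17 on day 16 (adjusted p = 0.000617) and then -1.22 ± 0.17 on day 26 (adjusted p = 5.35e-05). The day 6 call was lost without vehicle replicate 2 or day 6 replicate 2, with an adjusted p of up to 0.0612. Across the members, 4 of 36 (Lce1b, Lce1d, Lce1e and Lce6a) lay in all 12 paclitaxel female libraries below all 12 other paw libraries, as did 4.87% of all genes, and 0 members lay above them, as did 4.7% of all genes.

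The Lce3 genes, which are known for their part in barrier repair in human skin, were low. Lce3c held 34.2, 55.2 and 35.4 CPM in vehicle females, 22.3, 21 and 17.2 CPM on day 2, 36.7, 19.4 and 28.2 CPM on day 6, 23.3, 26.4 and 32.9 CPM on day 16, and 14.7, 20.3 and 18.1 CPM on day 26. Days 2, 16 and 26 lay wholly below vehicle. Days 6 and 16 did not pass (-0.43 ± 0.25, adjusted p = 0.221, and -0.49 ± 0.25, adjusted p = 0.176), while days 2 and 26 did, with a log2 fold change of -0.97 ± 0.25 on day 2 (adjusted p = 0.00746) and then -1.14 ± 0.26 on day 26 (adjusted p = 0.00327). The day 2 call was lost without vehicle replicate 2 (adjusted p = 0.0611). Lce3f, at 2.74 to 8.81 CPM in females, and Lce3a and Lce3b, at 3.52 CPM or less, did not pass on any female day.

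The SPRR proteins are flexible bridges between other envelope proteins. Sprr1b held 736, 902 and 857 CPM in vehicle females, 403, 354 and 255 CPM on day 2, 693, 487 and 547 CPM on day 6, 414, 501 and 574 CPM on day 16, and 288, 386 and 266 CPM on day 26. All 4 days lay below vehicle without overlap. It passed on day 2 (-1.22 ± 0.24, adjusted p = 0.000823) and again on day 26 (-1.31 ± 0.24, adjusted p = 0.000618). The log2 change was -0.39 ± 0.24 on day 6 (adjusted p = 0.235) and then -0.64 ± 0.24 on day 16 (adjusted p = 0.0593).

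Of the 8 Sprr2 genes tested, 6 fell on day 2 (14.9% of all genes) and 2 on day 6 (13.5%). On day 16, 1 fell (10.3%), on day 26, 5 fell (9.41%), and 0 rose on any day (11% to 16%). The 2 on day 6 were Sprr2h and Sprr2j-ps, whose call (-1.75 ± 0.63, adjusted p = 0.0418) was lost when any 1 library other than day 6 replicate 3 was left out (adjusted p up to 0.153), and it did not pass with DESeq2. Sprr2h, the Sprr2 gene with the highest vehicle level, held 58.6, 95.1 and 59.8 CPM in vehicle females, 16.9, 26.9 and 22.1 CPM on day 2, 34.9, 31.2 and 24.6 CPM on day 6, 26.3, 24.6 and 40.1 CPM on day 16, and 39.2, 30.6 and 33.0 CPM on day 26. It lay below vehicle without overlap on every day, with log2 changes that included -1.62 ± 0.32 on day 2 (adjusted p = 0.000871) and then -0.96 ± 0.31 on day 26 (adjusted p = 0.0339). Its calls on days 6, 16 and 26 were lost without vehicle replicate 2, that on day 16 also without day 16 replicate 1 or 2 and that on day 26 without any day 26 replicate, with adjusted p of up to 0.0754, 0.0905 and 0.18. Sprr2b was lower on day 2, at 17.3, 16.0 and 15.3 CPM against 40.8, 50.0 and 55 CPM in vehicle females (-1.5 ± 0.51, adjusted p = 0.0324), and that call was lost without any single library but vehicle replicate 1, with an adjusted p of up to 0.096. Sprr2d held 18.4, 18.0 and 22 CPM on day 2, against 42.1, 47.1 and 39 CPM in vehicle females, and did not pass (-1.05 ± 0.40, adjusted p = 0.0525). The weakest Sprr2 genes rested on few reads on day 26, with 4 for Sprr2e, 7 for Sprr2g, 10 for Sprr2i and 1 for Sprr2j-ps over the 3 libraries, against 115, 115, 86 and 29 in vehicle females. All 4 were called there, and Sprr2e (-2.92 ± 0.89), Sprr2g (-2.46 ± 0.85), Sprr2k (-2.17 ± 0.75) and Sprr2j-ps (-2.08 ± 0.64) were called on day 2. Each of these day 2 calls was lost without vehicle replicate 2, day 2 replicate 2 or day 2 replicate 3, with adjusted p of up to 0.173, and Sprr2g and Sprr2k also lost theirs without vehicle replicate 3. With the replicate number as a block Sprr2g lost its day 2 call, where 20 members were called as before. The day 26 calls of Sprr2g and Sprr2i were lost without vehicle replicate 2 (Sprr2i also without day 26 replicate 1 or 2), with an adjusted p of up to 0.0632. Sprr4 held 0.896 to 12.6 CPM over the 12 libraries of paclitaxel females, against 3.45 to 5.51 CPM in vehicle females, and passed on no day.

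Ivl, which encodes involucrin, the early scaffold of the envelope, held 132, 156 and 133 CPM in vehicle females, 59.6, 99.6 and 69.3 CPM on day 2, 99.3, 94.9 and 82.0 CPM on day 6, 55.1, 52.5 and 79.1 CPM on day 16, and 113, 111 and 95.7 CPM on day 26. All 12 libraries lay below the vehicle libraries. The call was made on day 2 (-0.79 ± 0.22, adjusted p = 0.0107) and again on day 16 (-1.07 ± 0.22, adjusted p = 0.00172). The day 2 call was lost without vehicle replicate 2, day 2 replicate 1 or day 2 replicate 3, with an adjusted p of up to 0.0613.

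Members of the filaggrin type, which join a calcium-binding end to long repeats, went different ways. Flg2, a relative of filaggrin, held 201, 196 and 218 CPM in vehicle females, 67.5, 112 and 131 CPM on day 2, 132, 92.6 and 142 CPM on day 6, 224, 189 and 272 CPM on day 16, and 180, 118 and 124 CPM on day 26. It lay below vehicle without overlap on days 2, 6 and 26, and passed on day 2 alone (-0.89 ± 0.25, adjusted p = 0.0129), a call lost without day 2 replicate 1 (adjusted p = 0.0664). Hrnr, which encodes hornerin, held 3840 to 6110 CPM over the 12 libraries of paclitaxel females, against 4160 to 4730 CPM in vehicle females, and passed on no day. Crnn, which encodes cornulin, held 10.3 to 36.4 CPM, against 29.9 to 47.5 CPM in vehicle females, and did not pass either (-0.99 ± 0.39 on day 2, adjusted p = 0.0612).

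Rptn, which encodes repetin, held 162, 121 and 117 CPM in vehicle females, 190, 76.0 and 47.3 CPM on day 2, 296, 252 and 72.8 CPM on day 6, 116, 178 and 202 CPM on day 16, and 36.5, 45.4 and 35.0 CPM on day 26. The first 3 days overlapped with vehicle and day 26 lay below it (-1.67 ± 0.47, adjusted p = 0.0155). That call was lost without vehicle replicate 1, day 26 replicate 1 or day 26 replicate 3, with an adjusted p of up to 0.061.

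Tchh encodes trichohyalin, which hardens the inner root sheath of the hair follicle. It held 43.0, 29.4 and 52.6 CPM in vehicle females, 7.48, 37.0 and 7.66 CPM on day 2, 8.90, 26.7 and 32.4 CPM on day 6, 85.4, 117 and 927 CPM on day 16, and 61.1, 89.8 and 60.9 CPM on day 26. Day 16 lay above vehicle, with 1 library far above the others (3.33 ± 0.90, adjusted p = 0.012). Without that library, day 16 replicate 3, the log2 change was 1.35 (adjusted p = 0.215), and for Tchhl1, its neighbour gene, 2.17 ± 0.70 (adjusted p = 0.0321) became 0.56 (adjusted p = 0.544). Without vehicle replicate 2 the values were 3.14 for Tchh (adjusted p = 0.0556) and 1.91 for Tchhl1 (adjusted p = 0.12), and Tchhl1 was also not called without vehicle replicate 1 or 3. With the compared groups alone, neither Tchh nor Tchhl1 was called on day 16. Markers of hair varied widely on day 16 too. The summed level of 5 inner root sheath keratins was 110 to 1090 CPM, against 79.5 to 151 CPM in vehicle females. That of 9 hair shaft keratins was 33.3 to 304 CPM, against 28.8 to 65.2 CPM. Both sums overlapped with vehicle, while Tchh did not. On day 2, when Tchhl1 was lower (-3.01 ± 0.88, adjusted p = 0.0153), 8 of the 9 hair shaft keratins were lower too, as were 14.9% of all genes. These 9 keratins summed to 0.152 to 5.59 CPM on day 2, and Krt33a, Krt33b and Krt34 had 0 reads. Tchhl1 held 0.387, 0.134 and 0.355 CPM on day 2, against 3.27, 1.53 and 2.84 CPM in vehicle females. On day 6 Tchhl1 was lower too (-2.81 ± 0.88, adjusted p = 0.0208). Leaving out vehicle replicate 1, day 6 replicate 1 or day 6 replicate 2 ended this call (adjusted p up to 0.0849). The part of hair content in these results was not tested.

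Other genes of cornification were counted in the same fits, from lists written with earlier results of these data known. Of 13 crosslinking and junction genes, 0 passed on day 2 by edgeR (0 at an unadjusted p under 0.05). On day 6, 1 rose (16% of all genes did), on day 16, 1 rose (11.4%), and 0 passed on day 26. The risers were Tgm5 on day 6 (0.70 ± 0.18, adjusted p = 0.0054) and Tgm3 on day 16 (0.69 ± 0.22, adjusted p = 0.0284), both transglutaminases. Of 10 genes of filaggrin processing, 3 fell on day 2 (14.9% of all genes did), among them Casp14, a protease of cornifying cells (-0.90 ± 0.22, adjusted p = 0.00469), and Klk7, which cuts the links between surface cells (-0.67 ± 0.20, adjusted p = 0.0153). Later none fell (9.41% to 13.5% of all genes did). Blmh, a protease that breaks down filaggrin, rose on day 6 (0.60 ± 0.20, adjusted p = 0.0269) and day 16 (0.57 ± 0.20, adjusted p = 0.045), when 16% and 11.4% of all genes rose. On day 26, 0 passed by edgeR (2 at an unadjusted p under 0.05). Their summed level was 6440 ± 841 CPM in vehicle females, 5680 ± 1240 CPM on day 2, 7290 ± 845 CPM on day 6, 5930 ± 675 CPM on day 16 and 7020 ± 680 CPM on day 26 (SD, n = 3 each).

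Of 13 regulators of differentiation, 3 fell and 2 rose on day 2 (14.9% and 14.1% of all genes), 2 fell and 2 rose on day 6 (13.5% and 16%), 1 fell and 3 rose on day 16 (10.3% and 11.4%), and 1 fell and 2 rose on day 26 (9.41% and 11%). No difference from those shares was tested. Trp63, the master factor of stratified epithelium, fell (-0.78 ± 0.13 on the log2 scale, adjusted p = 0.00027), as did Zfp750, a factor of late differentiation (-0.81 ± 0.19, adjusted p = 0.00327). Cebpb rose on all 4 days, by 1.11 ± 0.20 on day 2 and 1.32 ± 0.20 on day 16. The keratins of the spinous and upper layers gave another picture on day 2, when 0 of 7 passed by edgeR (0 at an unadjusted p under 0.05). Their summed level was 96800 ± 23500 CPM on day 2, against 92200 ± 6520 CPM in vehicle females (SD, n = 3 each). It was 132000 ± 11000 CPM on day 6, 116000 ± 19700 CPM on day 16 and 107000 ± 17200 CPM on day 26. The day 6 libraries, at 126000 to 145000 CPM, lay above those of vehicle females, at 87200 to 99600 CPM. Skeletal muscle genes varied widely within groups, with a summed level of 5430 to 31500 CPM on day 2, against 55.5 to 12400 CPM in vehicle females. With muscle level as a covariate, 16 members were lower and 2 higher on day 2, in place of 20 and 0. In that fit 4307 of all genes were called, 2317 of them higher. Sprr2b, Sprr2g, Sprr2k and Sprr2j-ps lost their day 2 calls there. The part of muscle was not tested beyond the covariate fits given here and in the closing section.

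Days were next compared within paclitaxel females, which stay inside 1 library set. From day 2 to day 6 edgeR called 0 members (0.411% of all genes rose and 0.463% fell). The change was above 0 in 35 of the 36 members, with a median of 0.57 on the log2 scale against 0.02 over all genes, 22 members had an unadjusted p under 0.05 and DESeq2 called 9, all higher. Without day 2 replicate 2, which held the most Lor of its group, edgeR called 16, all higher, and without day 6 replicate 2 it called 6. On day 26 against day 2, 0 members and 0% of genes passed by edgeR, 11 members had an unadjusted p under 0.05 and DESeq2 called 0.

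On day 16 against day 2, 4 members rose and 0 fell (1.22% and 0.261% of all genes did). They were Tchhl1 (5.18 ± 0.87, adjusted p = 0.0063), Tchh (4.47 ± 0.95, adjusted p = 0.0249), Flg2 (1.16 ± 0.26, adjusted p = 0.0294) and Sprr2e (3.61 ± 0.88, adjusted p = 0.0462). Without day 16 replicate 3, Tchh (2.51, adjusted p = 0.258), Flg2 (0.99, adjusted p = 0.199) and Sprr2e (2.65, adjusted p = 0.334) were no longer called, and without day 2 replicate 3 none of the 4 was. On day 16 against day 6, Tchhl1 (4.98 ± 0.87, adjusted p = 0.00506), Tchh (4.07 ± 0.93, adjusted p = 0.0148) and Flg2 (0.86 ± 0.25, adjusted p = 0.0411) rose and 0 members fell, where 4.09% and 4.8% of all genes did. Tchhl1 kept that call whichever library was left out, but not with the compared groups alone, where 0 of all genes passed in either comparison (1040 and 3056 genes at an unadjusted p under 0.05). With each library left out, Flg2 lost the call without any but day 16 replicate 2 (adjusted p up to 0.117) and Tchh without day 6 replicate 3 or day 16 replicate 3 (up to 0.0861). Hair shaft keratins rose beside them, 7 of 9 in each comparison.

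On day 26 against day 16, 4 members fell and 0 rose (0.56% and 0.502% of all genes did). The log2 change was -2.09 ± 0.48 for Rptn (adjusted p = 0.0403), -3.75 ± 0.79 for Sprr2i (adjusted p = 0.0304) and -5.22 ± 1.08 for Sprr2e (adjusted p = 0.0277), and Sprr2j-ps was called on 1 read against 21. All 4 calls were lost without day 16 replicate 3, with adjusted p of 0.132 for Rptn, 0.13 for Sprr2i, 0.124 for Sprr2e and 0.156 for Sprr2j-ps. Rptn and Sprr2j-ps lost the call without any single library of the 6, and Sprr2e and Sprr2i without any but day 16 replicate 2. Among the 6 listed genes of stressed epidermis, the keratins Krt16 and Krt6a fell in the same comparison (-3.47 ± 0.66, adjusted p = 0.0179, and -1.68 ± 0.39, adjusted p = 0.045). The 6 genes summed to 189 to 296 CPM on day 26, against 480 to 1270 CPM on day 16. With the compared groups alone, 0 of all genes passed by edgeR (1752 at an unadjusted p under 0.05), so these calls were lost there.

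In paclitaxel males, the days did not separate the members. By edgeR 0 members and 0% of genes passed on day 6 against day 2, day 15 against day 2 or day 15 against day 6, DESeq2 called 0 members in each, and 3, 4 and 1 members had an unadjusted p under 0.05. The change from day 2 to day 6 was also set against that of females in 1 fit. There too 0 members and 0% of genes passed by edgeR, 5 members had an unadjusted p under 0.05 and DESeq2 called 0, so a difference between the sexes in that change was not detectable here.

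Paclitaxel males against vehicle females stay inside 1 library set, but sex and drug cannot be told apart. The 6 fibroblast genes summed to 6360 to 9820 CPM in paclitaxel males, against 2170 to 3340 CPM in vehicle females, and their part in the results was not tested. On day 2, 2 members were higher and 2 lower (3.6% and 2.35% of all genes), on day 6, 2 higher and 0 lower (3.84% and 2.13%), and on day 15, 5 higher and 0 lower (2.11% and 2.29%). Lor held 2400 to 3870 CPM over the 9 male libraries, against 3760 to 5840 CPM in vehicle females, and passed on no day. Lce6a and Lce1b passed on no day either, with 138 to 194 CPM and 805 to 1150 CPM in males, against 146 to 196 CPM and 1030 to 1420 CPM in vehicle females.

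Rptn and Crnn, which encodes cornulin, another protein of the filaggrin type, stood out in males. Rptn held 358, 374 and 803 CPM in males on day 2, 310, 432 and 364 CPM on day 6 and 548, 494 and 391 CPM on day 15. The lowest male library, at 310 CPM, lay above the highest of all 15 female paw libraries, at 296 CPM. Against vehicle females the log2 change was 2.01 ± 0.47 on day 2 (adjusted p = 0.0174), 1.52 ± 0.47 on day 6 (adjusted p = 0.0597) and then 1.89 ± 0.47 on day 15 (adjusted p = 0.0299).

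Crnn held 55.9, 90.0 and 98.2 CPM in males on day 2, 110, 87.6 and 64.8 CPM on day 6 and 101, 92.0 and 107 CPM on day 15, against 29.9, 47.5 and 30.9 CPM in vehicle females. Paclitaxel females held 10.3 to 36.4 CPM, so Crnn in paclitaxel males overlapped with neither group of females. It was higher than in vehicle females by 1.32 ± 0.38 on day 6 (adjusted p = 0.0477) and then 1.5 ± 0.39 on day 15 (adjusted p = 0.0332). The day 6 call was lost with the replicate number as a block, where 1 member was called in place of 2. Of the 36 members, 2 (Rptn and Crnn) lay in all 9 male libraries above all 15 female ones, as did 1.31% of all genes, and 0 lay below, as did 2.5% of all genes.

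Sprr4 held 11.7, 13.2 and 23.6 CPM in males on day 2, 14, 27.9 and 14.3 CPM on day 6 and 22.8, 24.7 and 19.8 CPM on day 15, against 5.51, 3.45 and 4.59 CPM in vehicle females. The groups did not overlap, with a log2 change of 1.91 ± 0.53 on day 2 (adjusted p = 0.0389), 2.12 ± 0.53 on day 6 (adjusted p = 0.0243) and then 2.37 ± 0.53 on day 15 (adjusted p = 0.0192). Flg2 was lower in males on day 2, at 68.1, 110 and 72.6 CPM against 201, 196 and 218 CPM in vehicle females (-1.21 ± 0.26, adjusted p = 0.0094). Tchh held 478, 469 and 393 CPM in males on day 15, against 43.0, 29.4 and 52.6 CPM in vehicle females (3.48 ± 0.90, adjusted p = 0.0353), and Tchhl1 was higher beside it (3.19 ± 0.72, adjusted p = 0.0192). In the same comparison Tchhl1 held 22.2, 22.4 and 22.2 CPM, against 3.27, 1.53 and 2.84 CPM.

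The inner root sheath keratins summed to 648 to 870 CPM in these 3 male libraries, against 79.5 to 151 CPM in vehicle females, and 0 of the 5 passed. Each of the 11 calls in males against vehicle females was lost when at least 1 library was left out. On day 2, Flg2 was not called without male replicate 1 (adjusted p = 0.061), Rptn without vehicle replicate 2 or 3 or male replicate 3 (up to 0.0786), Sprr4 without any single library (up to 0.15) and Lce1m (-0.98 ± 0.28, adjusted p = 0.0468) without any but male replicate 2 (up to 0.184). On day 6, Sprr4 was not called without any vehicle replicate or male replicate 2 (up to 0.123), and Crnn without any library but male replicate 3 (up to 0.165). On day 15, Rptn, Crnn and Tchh lost their calls whichever of the 6 libraries was left out (up to 0.127, 0.121 and 0.159). Tchhl1 was not called there without vehicle replicate 2 or 3 or male replicate 1 or 3 (up to 0.108). Sprr4 was not called without vehicle replicate 2 or 3 or male replicate 1 (up to 0.104).

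Paclitaxel males were set against paclitaxel females on matched days, a comparison added after the male levels of Crnn and Rptn had been seen and one that crosses the library sets. On day 2, 18 members were higher in males and 2 lower (15.7% and 15.5% of all genes), and on day 6, 8 higher and 2 lower (18% and 19.2%). The lower members were Lor and Crct1 on both days, and the day 2 call of Lor (-1.10 ± 0.31, adjusted p = 0.011) was lost without female day 2 replicate 2 (adjusted p = 0.101). With the compared groups alone, 11 members were higher and 0 lower on day 2, so the calls of both Lor and Crct1 were lost. On day 6 their log2 changes were -1.82 ± 0.32 (adjusted p = 0.000212) and -1.26 ± 0.21 (adjusted p = 0.000136). Crnn was higher by 2.23 ± 0.40 on day 2 (adjusted p = 0.000302) and then 1.69 ± 0.39 on day 6 (adjusted p = 0.00231), and Sprr4 by 2.03 ± 0.53 (adjusted p = 0.00655) and 2.50 ± 0.54 (adjusted p = 0.0014).

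DRG hold no epidermis, so the members served there as a check on reads carried over from skin. With Tchh left out, since it had 4.49 to 8.41 CPM in every DRG library, the 39 other members summed to 42.8 ± 5.34 CPM in paclitaxel females on day 2 and 40.9 ± 7.30 CPM on day 6 (SD, n = 3 each). Paclitaxel males held 5.14 ± 0.553 CPM on day 2 and 8.41 ± 2.49 CPM on day 6, against 5.91 ± 0.335 CPM in vehicle females. These sums are 0.245% and 0.158% of the paw level of the same groups in paclitaxel females and 0.0274% and 0.0437% in paclitaxel males, against 0.0292% in vehicle females.

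**Figure D4:**
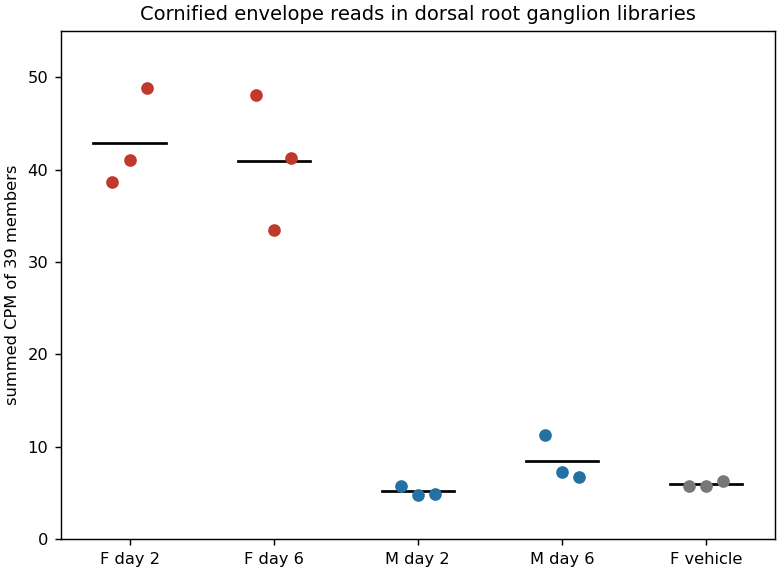
Summed CPM of 39 members (Tchh left out) in each DRG library on a linear axis, with paclitaxel females in red, paclitaxel males in blue, vehicle females in grey and bars at the means of 3 libraries. The red points lie at 33.5 to 48.8 CPM and all others at 4.79 to 11.3 CPM.

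Of the 16 members tested in DRG, 15 were higher in paclitaxel females on day 2 (25.8% of all genes rose) and 14 on day 6 (23.2%), and none were lower. Apart from Lor, Hrnr and Tchh, they held 0.43 CPM or less in each vehicle library. These passed the filter for low counts only with the paclitaxel female libraries, so the counts cannot be weighed against the shares of all genes. With all genes kept, 17 members were higher on day 2 and 15 on day 6. Lce6a, not tested, held 0.176 to 0.262 CPM on day 2, against 0.202 to 0.278 CPM in vehicle females. Lor held 18.6, 19.7 and 23.2 CPM on day 2 and 24.5, 15.3 and 19.8 CPM on day 6, against 1.07, 1.25 and 1.41 CPM in vehicle females. The groups were far apart, with a log2 change of 4.04 ± 0.20 on day 2 (adjusted p = 2.16e-09) and then 4.02 ± 0.20 on day 6 (adjusted p = 2.56e-09). Hrnr rose by 2.68 ± 0.36 on day 2 (adjusted p = 3.13e-05) and Crct1 by 2.65 ± 0.28 (adjusted p = 3.79e-06). The suprabasal keratins stood beside them, summing to 206 ± 28.4 CPM on day 2 and 208 ± 41.0 CPM on day 6, against 29.9 ± 1.25 CPM in vehicle females. The sum of 6 basal keratinocyte genes did not follow, at 421 ± 52.3 CPM on day 2 and 436 ± 56.9 CPM on day 6, against 501 ± 87.4 CPM in vehicle females. Of these 6, 4 rose on both days, Krt5, Krt14, Krt15 and Col17a1 (2.56 ± 0.19 for Krt5 on day 2, adjusted p = 1.22e-07), while Itga6, an integrin subunit, fell on day 2 (-0.81 ± 0.28, adjusted p = 0.0246). The 6 genes of stressed keratinocytes summed to 63.8 ± 10.3 CPM on day 2 and 59.4 ± 33.7 CPM on day 6, against 85.5 ± 17.7 CPM in vehicle females, and 0 of the 3 tested passed by edgeR (0 at an unadjusted p under 0.05). Both tissues held their own markers, with 6570 to 8500 CPM over 6 sensory neuron genes in DRG and 77700 to 145000 CPM over 7 suprabasal keratins in paw. In paw the sensory neuron genes summed to 9.73 to 15.2 CPM in paclitaxel females and 5.41 to 9.18 CPM in paclitaxel males, against 6.32 ± 0.723 CPM in vehicle females (SD, n = 3).

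Read ratios in DRG were set beside those in paw. Lce1b gave 1.51 reads per Lce1h read on day 2 (68 to 45 reads, exact 95% interval 1.02 to 2.25) and 1.44 on day 6 (59 to 41 reads, 0.95 to 2.20), against 3.12 in vehicle females (25 to 8 reads, 1.37 to 8.02). The paw ratios of 1.65 on day 2, 1.61 on day 6 and 3.45 in vehicle females lay inside those intervals. Lor gave 19.6 reads per Lce1b read on day 2 (15.3 to 25.4) and 21.1 on day 6 (16.3 to 27.9), against 3.64 in vehicle females (2.32 to 5.92), and the paw ratios of 15.5, 19.7 and 3.81 lay inside again. Lce1d gave 2.0 reads per Lce1i read in DRG on day 2 (66 to 33 reads, 1.30 to 3.14), above the 1.11 in paw, and 1.2 on day 6 (0.792 to 1.84), where the 1.08 in paw lay inside, against 7 in vehicle females (21 to 3 reads, 2.09 to 36.7), where the 2.72 in paw lay inside too. For both further pairs with Lor, the paw ratios lay outside the DRG intervals in paclitaxel females. Lor gave 2.59 reads per Hrnr read in DRG on day 2 (2.33 to 2.87), against 1.39 in paw, and 2.34 on day 6 (2.11 to 2.59), against 2.01 in paw, while in vehicle females it gave 1 (0.74 to 1.35), with 1.01 in paw. Lor gave 12.2 reads per Crct1 read in DRG on day 2 (10 to 15.0), against 8.47 in paw, and 13.4 on day 6 (10.8 to 16.7), against 10.3 in paw. In vehicle females it gave 4.79 (2.90 to 8.32), with 7.35 in paw. Crnn to Hrnr rested on 1 or 2 Crnn reads in these DRG groups, and the paw ratios lay inside the wide intervals. Intervals cover counting error only, and a difference between the tissues was not tested. On day 6 single libraries overlapped, with 2.27 to 2.44 Lor reads per Hrnr read in DRG and 1.66 to 2.42 in paw. Lor gave 10.2 to 18.4 reads per Crct1 read there in DRG libraries and 9.66 to 11.1 in paw libraries. On day 2 the library ranges were 2.4 to 2.87 and 0.766 to 1.85 for Lor to Hrnr. Those for Lor to Crct1 were 10.6 to 15.8 in DRG and 5.27 to 10.6 in paw. Day 6 against day 2 gave 0 calls among members in DRG of females (0.0706% of genes rose and 0.109% fell) and of males (0% and 0%) by edgeR and by DESeq2, with 0 and 3 members at an unadjusted p under 0.05. The source of the DRG reads was not tested, and drug and library set cannot be told apart in them.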

How the data were processed

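Hind paw biopsies and L3 to L5 DRG gave 39 libraries. Per the labels' protocols these were stranded mRNA libraries of 50-base single-end reads. Per the submitters' processing notes, bcl2fastq, TopHat2, mm9 and HTSeq were used; versions, annotation and strand setting are not given in the sources used here. The deposited files hold whole, raw counts for each gene symbol. Summary lines were left out: reads that hit no gene were 13.91% to 21.55% of those placed once.

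Each tissue was fitted alone with edgeR 4.0.16 (R 4.3.3; TMM, filterByExpr, 1 coefficient per group) over 15346 genes in paw and 15577 in DRG, after tests on simulated data. Values after ± on log2 changes are standard errors. CPM used all gene reads. No 2 libraries were as close as repeat samplings (smallest chi-square over its degrees of freedom 8.25 for paw, 4.83 for DRG). Members and lists were chosen with earlier results of these data known. By rule, any member could be named, and of 14 gene lists (112 of 113 genes in the files) up to 4 called genes each. Windows of 50 bases and exon lengths came from GENCODE M21, where no member shared 50 exon bases with another gene on either strand. Promoter identity used Biopython 1.88.

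Same-numbered replicates deviated together, with every correlation over 0.1, in female paw day 2 (0.16 to 0.59) and male days 6 and 15 (0.25 to 0.64 and 0.19 to 0.55) against vehicle females and in male DRG day 6 against day 2 (0.12 to 0.30); the pairing comes from the values alone.

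Alternatives were DESeq2 1.42.0, RLE size factors, all genes kept whatever their counts, the replicate block, the compared groups alone, muscle or keratin level as a covariate, and each library left out.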

Additional observations from a re-analysis of the deposited data

Results flagged for a closer look

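In females, some members lay below vehicle in all 3 paw libraries of a day and above vehicle in all 3 DRG libraries of the same day. The difference between the tissues was not tested. On day 2 this held for 10 of the 16 members tested in both tissues, and for 1.69% of the 14346 genes tested in both. The members named here held 0.43 CPM or less in each vehicle DRG library. They passed the filter for low counts in DRG only with the paclitaxel female libraries. Being higher in DRG was thus partly set by the filter, and the counts cannot be weighed against the shares of all genes. Of the 10, 8 were called by edgeR in both tissues, while Lce1a2 and Lce1m did not pass in paw. Paw minus DRG log2 changes were -3.33 for Lce1a1, -3.45 for Lce1a2, -2.98 for Lce1b, -2.27 for Lce1c and -3.35 for Lce1d. They were -3.01 for Lce1f, -2.65 for Lce1g, -2.95 for Lce1l, -3.16 for Lce1m and -3.14 for Sprr1b. On day 6 it held for 6 of the 16 and for 1.19% of all genes, and 2 of the 6, Lce1b and Lce1d, were called in both tissues. Lce1c, Lce1f, Lce1g and Sprr1b did not pass in paw, nor did Lce1g in DRG. Paw minus DRG values were -2.33 for Lce1b, -2.0 for Lce1c, -2.59 for Lce1d, -2.06 for Lce1f, -1.55 for Lce1g and -2.49 for Sprr1b. In vehicle DRG these genes rest on few reads, 25 in all for Lce1b and 15 for Sprr1b. The library set and the drug cannot be told apart in either tissue.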

How the results depend on the processing

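No call on a member reversed under any alternative run. Of the calls in paclitaxel females against vehicle, 11 of 20 on day 2, 4 of 9 on day 6, 5 of 13 on day 16 and 10 of 15 on day 26 held under every alternative, as did 13 of 15 and 12 of 14 in DRG on days 2 and 6. Of the calls between female days and of males against vehicle females, 0 did. In males against paclitaxel females 10 of 20 held on day 2 and 9 of 10 on day 6. Apart from Lor and Hrnr, the members called in DRG passed the filter for low counts only with the paclitaxel female libraries. How often the DRG calls held can thus not be weighed against the paw calls.

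With muscle level as a covariate, 21 members were called (18 lower, 3 higher) in place of 9 (7 lower, 2 higher) on female day 6, 8 in place of 4 on day 26 against day 16, 8 in place of 4 on male day 2 and 6 in place of 2 on male day 6 against vehicle females, and 18 in place of 10 in males against females on day 6. With suprabasal keratin level, counts were 16 on female day 6 against vehicle (13 lower, 3 higher) and 6 on day 6 against day 2. DESeq2 called 9 on day 6 against day 2, 7 on day 26 against day 16, 10 on male day 2 and 6 on male day 6 against vehicle females. With the compared groups alone, 0 were called on day 16 against day 2, day 16 against day 6 and day 26 against day 16, and 11 in males against females on day 2, all higher. In that setting 10 were lower and 1 higher on female day 16 against vehicle, in place of 9 and 4. Without the filter 1 was called on male day 6 against vehicle females. With the replicate block, 1 was called there and 1 on female day 6 against day 2, Sprr2g lost its call on female day 2, Sprr2e on day 16 against day 2, Sprr2j-ps on day 26 against day 16 and Crnn on male day 6 against vehicle females, and no other comparison's count moved by over 1.5 times.

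Leaving out each library gave 12 to 20 calls on female day 2 against vehicle (lowest without vehicle replicate 2), 5 to 12 on day 6, 7 to 13 on day 16 and 11 to 14 on day 26. Between female days the ranges were 0 to 16 for day 6 against day 2, 0 to 5 for day 16 against day 2, 1 to 3 for day 16 against day 6 and 0 to 4 for day 26 against day 16. Males against vehicle females gave 1 to 4, 0 to 2 and 0 to 2 on days 2, 6 and 15. Males against females gave 14 to 20 on day 2 and 9 to 13 on day 6. Where a group keeps 2 libraries, the fit assumes the spread of the other groups.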
